A study of Homo sapiens with 6 samples.

Results

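The genes described here are 10 subunits of the Polycomb repressive complexes PRC2 and PRC1, chosen by symbol from the 59715 gene IDs of the count table, and all 10 were found. They are the PRC2 enzymes EZH2 and EZH1, the PRC2 core genes SUZ12, EED and RBBP4, the PRC2 accessory genes JARID2, MTF2 and PHF19, and the PRC1 genes BMI1 and RNF2. Their RNA was measured by poly(A)-selected RNA-seq in HCT116, an established human colorectal carcinoma line. There were 3 libraries of wild-type cells (MLL4WT) and 3 of cells in which MLL4 had been knocked out (MLL4KO), with no treatment named in the labels. The labels do not say whether the knockout is 1 clone or whether libraries came from separate cultures, so p-values measure only the spread between these libraries.

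PRC2 places methyl groups on lysine 27 of histone H3, and canonical and variant PRC1 complexes place ubiquitin on histone H2A; both marks go with transcriptional repression. The name MLL4 is mostly used for KMT2D, a histone H3 lysine 4 methyltransferase of enhancers that works in a complex with UTX (KDM6A), a demethylase that removes the PRC2 mark. It has also been used for KMT2B, and the labels do not say which gene was targeted. The comparison asked whether RNA of the Polycomb subunits differed between cells with and without MLL4. The test was the edgeR quasi-likelihood test over the 14543 genes with enough counts, and a gene is said to have risen or fallen at a Benjamini-Hochberg adjusted p under 0.05. Levels are given as CPM, that is counts divided by the library's size after TMM (trimmed mean) scaling, and log2 fold changes are MLL4KO over MLL4WT with their standard error.

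Library totals ranged from 6829400 to 19736751 counts, and the shallowest, MLL4WT replicate 1, stood apart from the other 5 on the second principal component (17.4% of variance). It was also alone on its flow cell code. KMT2D was at 240, 231 and 234 CPM in MLL4WT against 230, 243 and 225 CPM in MLL4KO (difference on the log2 scale -0.01 ± 0.05, edgeR adjusted p = 0.832). A count over the whole gene would not show a small deletion, so this does not check the labels. Of 5 epithelial markers all were detected and 4 fell (EPCAM, KRT8, KRT18 and KRT19), with a summed level of 1575 to 1640 CPM in MLL4WT and 1053 to 1073 CPM in MLL4KO. Over all tested genes 21.6% fell and 19.8% rose. Of 5 leukocyte markers none reached 1 CPM in any library (summed list 1.03 to 1.72 CPM in MLL4WT and 1.54 to 2.06 CPM in MLL4KO), and of 5 fibroblast markers DCN and LUM stayed under 1 CPM. COL3A1, a fibroblast collagen marker, fell (5.22 ± 0.288 to 0.776 ± 0.367 CPM; edgeR adjusted p = 1.57e-05), COL1A1 rose (22.4 ± 0.677 to 27.3 ± 1.89 CPM; edgeR adjusted p = 0.0106) and COL1A2 did not pass the test, while the fibroblast list summed to 28.23 to 29.01 CPM in MLL4WT and 27.3 to 30.7 CPM in MLL4KO. The part of these markers in the results was not tested.

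The promoters of 5 members are shown because they belong to the largest rise (JARID2), the largest fall (BMI1), the main enzyme (EZH2) and a pair of alternative PRC2 subunits that moved in opposite directions (MTF2 and PHF19). Each is 300 bases from RefSeq on GRCh38.p14, 250 before and 50 after the annotated start, written 5′ to 3′ on the gene's strand. Capitals mark E2F words (TTTCCCGC, TTTCGCGC, TTTGCCGC or TTTGGCGC) and the cAMP response element word TGACGTCA, on either strand.
JARID2, downstream start, chr6:15248605-15248904, plus strand: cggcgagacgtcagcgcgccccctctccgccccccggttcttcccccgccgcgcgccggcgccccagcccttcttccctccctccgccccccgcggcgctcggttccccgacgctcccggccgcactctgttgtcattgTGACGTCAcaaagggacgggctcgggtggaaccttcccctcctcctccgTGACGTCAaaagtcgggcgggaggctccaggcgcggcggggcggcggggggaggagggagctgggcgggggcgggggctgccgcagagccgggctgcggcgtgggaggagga
BMI1, upstream start, chr10:22320849-22321148, plus strand: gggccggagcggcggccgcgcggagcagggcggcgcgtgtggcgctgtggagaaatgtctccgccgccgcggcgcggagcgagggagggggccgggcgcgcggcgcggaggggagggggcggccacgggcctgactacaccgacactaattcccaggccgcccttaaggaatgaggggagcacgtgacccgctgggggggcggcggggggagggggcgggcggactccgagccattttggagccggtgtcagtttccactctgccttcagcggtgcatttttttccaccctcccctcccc
EZH2, upstream start, chr7:148884242-148884541, minus strand: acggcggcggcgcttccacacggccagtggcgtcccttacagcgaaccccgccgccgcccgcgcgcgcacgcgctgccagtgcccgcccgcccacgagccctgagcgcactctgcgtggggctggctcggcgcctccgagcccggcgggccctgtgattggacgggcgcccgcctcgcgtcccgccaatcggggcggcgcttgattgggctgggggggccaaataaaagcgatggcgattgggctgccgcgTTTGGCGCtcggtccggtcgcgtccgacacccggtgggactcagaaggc
MTF2, chr1:93079033-93079332, plus strand: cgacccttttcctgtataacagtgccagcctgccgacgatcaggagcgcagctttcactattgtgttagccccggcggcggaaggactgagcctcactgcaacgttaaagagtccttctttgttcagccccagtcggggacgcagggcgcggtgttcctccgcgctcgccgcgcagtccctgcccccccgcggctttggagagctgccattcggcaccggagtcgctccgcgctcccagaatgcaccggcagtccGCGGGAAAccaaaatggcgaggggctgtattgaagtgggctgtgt
PHF19, upstream start, chr9:120877139-120877438, minus strand: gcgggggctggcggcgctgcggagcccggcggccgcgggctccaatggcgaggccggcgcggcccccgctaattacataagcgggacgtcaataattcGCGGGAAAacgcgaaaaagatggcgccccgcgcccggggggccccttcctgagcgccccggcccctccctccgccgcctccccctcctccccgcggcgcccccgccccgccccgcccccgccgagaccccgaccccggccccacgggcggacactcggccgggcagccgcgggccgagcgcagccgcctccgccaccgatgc
The table held 15 promoters for the 10 genes. An E2F word was found in 5 of them, 1 each for EZH2, EZH1, SUZ12, MTF2 and PHF19, while 3.31% of the 35116 promoters of that length held one. The word TGACGTCA was found only in the JARID2 promoter printed above, which held it 2 times, and in 1.85% of all promoters. The upstream JARID2 start, at chr6:15245819-15246118, held neither this word nor an E2F word. The downstream EZH2 and PHF19 starts, not printed, also held neither. The reasons given for showing the 5 genes do not cover which start was printed. The printed BMI1 promoter held neither. No E2F word overlapped a TGACGTCA, GGGCGG or CCAAT word in these promoters. The 5 genes with an E2F word included 1 that rose, 1 that fell and 3 that did not pass the test. The 15 promoters held 16 to 65 CpG dinucleotides with a median of 40.0, against a median of 14 over all promoters. Every word searched for holds a CG, and the shares over all promoters were not matched for CpG content. These matches describe letters only, and counts per gene do not show which start was used.

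Of the 10 genes 4 rose (JARID2, RNF2, RBBP4 and MTF2), 2 fell (BMI1 and PHF19) and 4 did not pass the test (EZH2, EZH1, SUZ12 and EED). Of all tested genes 19.8% rose and 21.6% fell, so that 41.4% changed. In 7 of the 10 genes the genotypes did not overlap, against 52.5% of all tested genes. The median log2 fold change was 0.07 over the 10 genes and -0.0044 over all tested genes. With total counts in place of TMM the tested genes divided into 3706 that rose and 2394 that fell, where TMM gave 2885 and 3136; the same 6 members were called in the same directions, and SUZ12 was added to the rises. Without MLL4WT replicate 1, 5 of the 10 rose, again with SUZ12, and 2 fell. In bulk RNA a change in the number of expressing cells and a change in RNA per cell cannot be told apart.

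**Figure D1:**
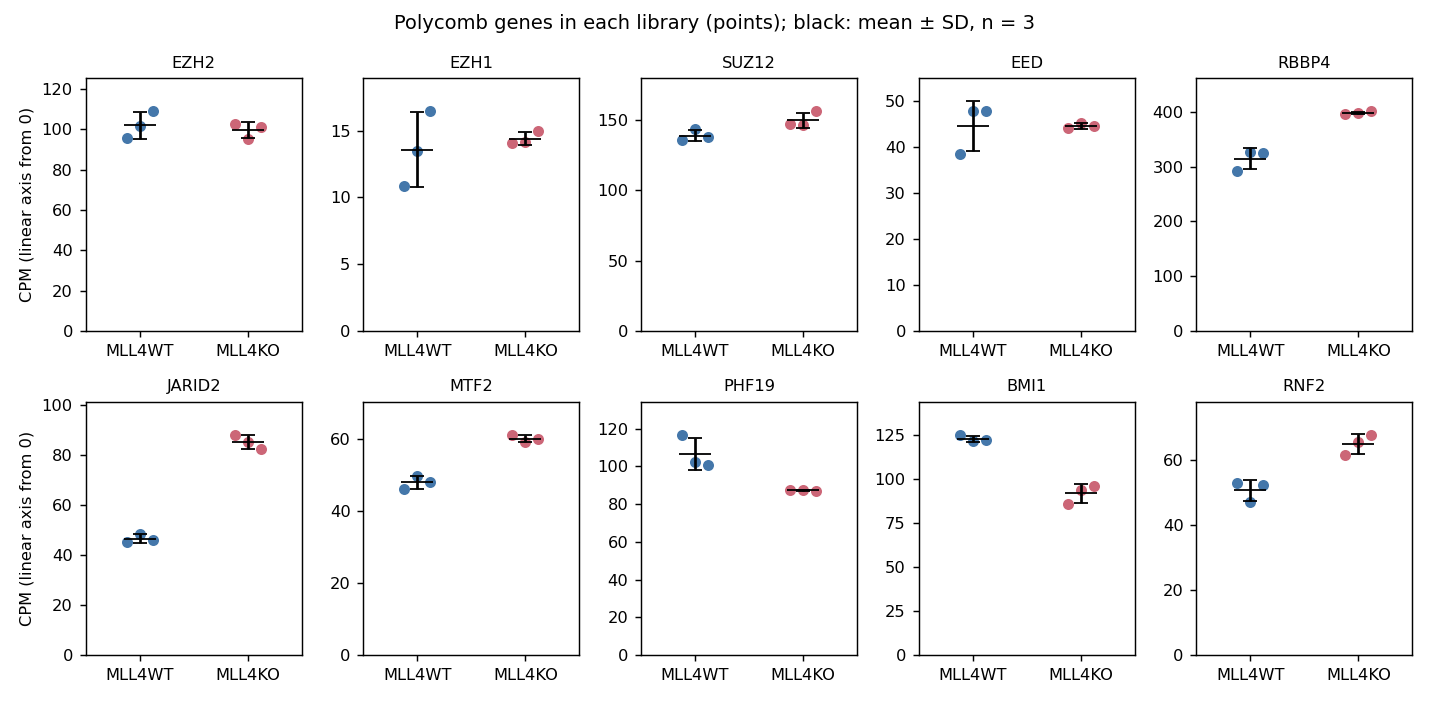
CPM of each of the 10 Polycomb genes (vertical axes, linear from 0) in the 3 MLL4WT libraries (blue) and the 3 MLL4KO libraries (red), with the mean and SD in black. JARID2 shows the widest gap for its level, from 46.5 to 85.2 CPM, while the points of EZH2, EZH1 and EED overlap between the genotypes.

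Neither catalytic subunit passed the test. EZH2, the main H3K27 methyltransferase of dividing cells (chromosome 7, 148807383 to 148884321), was at 95.4, 102 and 109 CPM in MLL4WT against 102, 94.9 and 101 CPM in MLL4KO. The groups overlapped, the highest level being that of MLL4WT replicate 3 and the lowest that of MLL4KO replicate 2, and the log2 fold change was -0.04 ± 0.06 (edgeR adjusted p = 0.590). EZH1, its paralog with weaker enzymatic activity that is known from non-dividing cells (chromosome 17, 42700275 to 42745049), was at 10.9, 13.4 and 16.4 CPM in MLL4WT against 14.1, 14.1 and 15.0 CPM in MLL4KO. All MLL4KO values of EZH1 lay inside the MLL4WT range (log2 0.04 ± 0.12, edgeR adjusted p = 0.836).

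The ratio of EZH2 to EZH1 counts needs no library scaling. It was 8.80, 7.56 and 6.62 in MLL4WT and 7.28, 6.73 and 6.77 in MLL4KO, so the groups overlapped. The mean log2 ratio was 2.93 ± 0.20 in MLL4WT and 2.79 ± 0.06 in MLL4KO (SD, n = 3 each), a difference of -0.14 (exact two-sided permutation p = 0.4, where 3 against 3 cannot go below 0.1). The difference was 0.13, of opposite sign, within the flow cell that held MLL4WT replicate 3 and MLL4KO replicate 1. Its size turned on single libraries, being -0.03 without MLL4WT replicate 1 and -0.24 without MLL4WT replicate 3. It was -0.02 both with a flow cell term and in libraries thinned to the shallowest total. MLL4WT replicate 1 was alone on its flow cell code, so the flow cell term left it without weight in the difference.

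Of the core subunits that the enzymes need for activity, RBBP4 rose, and SUZ12 and EED did not pass the test. SUZ12, the scaffold subunit (chromosome 17, 31937018 to 32001045), was at 135, 143 and 138 CPM in MLL4WT against 147, 146 and 156 CPM in MLL4KO. The groups did not overlap, but the difference was small and missed the threshold (log2 0.11 ± 0.05, edgeR adjusted p = 0.0932). The call was made with total counts (log2 0.17, adjusted p = 0.0112), with upper quartile factors (log2 0.16, adjusted p = 0.0155) and without MLL4WT replicate 1 (log2 0.10, adjusted p = 0.0299), and not after GC and length correction (log2 -0.0049, adjusted p = 0.936), which removes each library's trends with GC content and transcript length. EED, the subunit that reads the methyl mark and stimulates the enzyme (chromosome 11, 86244544 to 86278813), was at 38.3, 47.7 and 47.7 CPM in MLL4WT against 44.0, 45.2 and 44.5 CPM in MLL4KO. The group means of EED were 44.6 CPM in both genotypes (log2 -0.02 ± 0.08, edgeR adjusted p = 0.830), with MLL4WT replicate 1 the lowest of the 6 libraries.

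RBBP4, a histone-binding subunit that PRC2 shares with other chromatin complexes (chromosome 1, 32651142 to 32686211), was at 293, 326 and 324 CPM in MLL4WT against 396, 397 and 400 CPM in MLL4KO. All MLL4KO libraries were higher than all MLL4WT libraries, and RBBP4 rose 1.26-fold (log2 0.34 ± 0.05, edgeR adjusted p = 0.00018). After GC and length correction the rise was smaller (log2 0.20, adjusted p = 0.000821). Its close relative RBBP7, which takes the same place in PRC2, was at 145, 184 and 185 CPM in MLL4WT against 196, 197 and 196 CPM in MLL4KO, without overlap (log2 0.18 ± 0.08, edgeR adjusted p = 0.0830). RBBP7 was called in 7 of 18 tested alternatives, among them without MLL4WT replicate 1 (log2 0.10, adjusted p = 0.0124) and without MLL4WT replicate 3 (log2 0.25, adjusted p = 0.0391).

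JARID2 had the largest difference of the 10 genes. It encodes a DNA-binding accessory subunit that helps bring PRC2 to its targets and defines the form called PRC2.2 (chromosome 6, 15246296 to 15522040). It was at 45.0, 48.4 and 46.1 CPM in MLL4WT against 87.8, 85.2 and 82.4 CPM in MLL4KO, and no MLL4KO library came near the MLL4WT range. The mean rose 1.83-fold, being 46.5 ± 1.70 and then 85.2 ± 2.71 CPM (SD, n = 3 each; log2 0.87 ± 0.05, edgeR adjusted p = 2.28e-07). By size this was rank 602 among the rises of the 14543 genes. The difference was 0.93 on the log2 scale within the flow cell of MLL4WT replicate 3 and MLL4KO replicate 1, and 0.79 within that of MLL4WT replicate 2 and MLL4KO replicates 2 and 3.

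MTF2 and PHF19 are Polycomb-like proteins, alternatives to each other in the form called PRC2.1, and their transcripts moved in opposite directions. MTF2 (chromosome 1, 93079235 to 93139081) was at 46.1, 49.8 and 48.1 CPM in MLL4WT against 61.1, 59.2 and 60.1 CPM in MLL4KO. It rose 1.248-fold with no overlap (log2 0.32 ± 0.05, edgeR adjusted p = 0.000618). PHF19 (chromosome 9, 120855652 to 120894896) was at 117, 102 and 101 CPM in MLL4WT against 87.5, 87.6 and 86.8 CPM in MLL4KO. It fell 1.21-fold with no overlap, MLL4WT replicate 1 being the highest library (log2 -0.28 ± 0.06, edgeR adjusted p = 0.00243). PHF1, the third Polycomb-like gene, named after its values were seen, was at 51.1, 47.4 and 44.5 CPM in MLL4WT against 42.8, 42.0 and 43.6 CPM in MLL4KO (difference on the log2 scale -0.14 ± 0.06, edgeR adjusted p = 0.0966).

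The PRC1 genes also moved in opposite directions. BMI1, a PCGF subunit of canonical PRC1 that supports stem cell self-renewal (chromosome 10, 22321211 to 22331484), was at 125, 122 and 122 CPM in MLL4WT against 85.6, 93.9 and 95.7 CPM in MLL4KO. The mean fell 1.34-fold, being 122.7 ± 1.802 and then 91.7 ± 5.39 CPM, with no overlap (log2 -0.42 ± 0.05, edgeR adjusted p = 6.75e-05). RNF2, the RING1B ubiquitin ligase that modifies H2A (chromosome 1, 185045364 to 185102608), was at 52.8, 46.9 and 52.2 CPM in MLL4WT against 61.3, 65.6 and 67.5 CPM in MLL4KO. It rose 1.28-fold with no overlap (log2 0.36 ± 0.06, edgeR adjusted p = 0.000782). Its rise lost the call when all libraries were thinned to the shallowest total (log2 0.24, adjusted p = 0.0541), and was 0.23 and 0.51 on the log2 scale within the flow cells that held both genotypes.

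Paralogs of the PRC1 members are set beside them. RING1, which encodes the other H2A ubiquitin ligase of PRC1, was at 45.6, 54.7 and 49.9 CPM in MLL4WT against 36.5, 36.5 and 35.8 CPM in MLL4KO. It fell 1.39-fold with no overlap (log2 -0.48 ± 0.07, edgeR adjusted p = 0.00019), or by 0.32 on the log2 scale after GC and length correction (adjusted p = 0.00516). The ratio of RNF2 to RING1 counts was 1.16, 0.857 and 1.05 in MLL4WT and 1.681, 1.797 and 1.888 in MLL4KO. PCGF2, the closest relative of BMI1, named after its values were seen, was at 69.2 ± 2.37 CPM in MLL4WT against 71.94 ± 2.998 CPM in MLL4KO (log2 0.06 ± 0.05, edgeR adjusted p = 0.384), and the ratio of BMI1 to PCGF2 counts went from 1.75, 1.82 and 1.76 to 1.149, 1.367 and 1.317. The ratio of JARID2 counts to those of MTF2 and PHF19 together was 0.277, 0.318 and 0.309 in MLL4WT and 0.591, 0.581 and 0.561 in MLL4KO. These 3 ratios were chosen after the values were seen and are given without a test. In each the groups did not overlap, which adds no support because the genes were picked by their values. The ratio of EED to SUZ12 counts was also computed. It was 0.283, 0.332 and 0.346 in MLL4WT and 0.299, 0.309 and 0.285 in MLL4KO, with overlap.

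**Figure D2:**
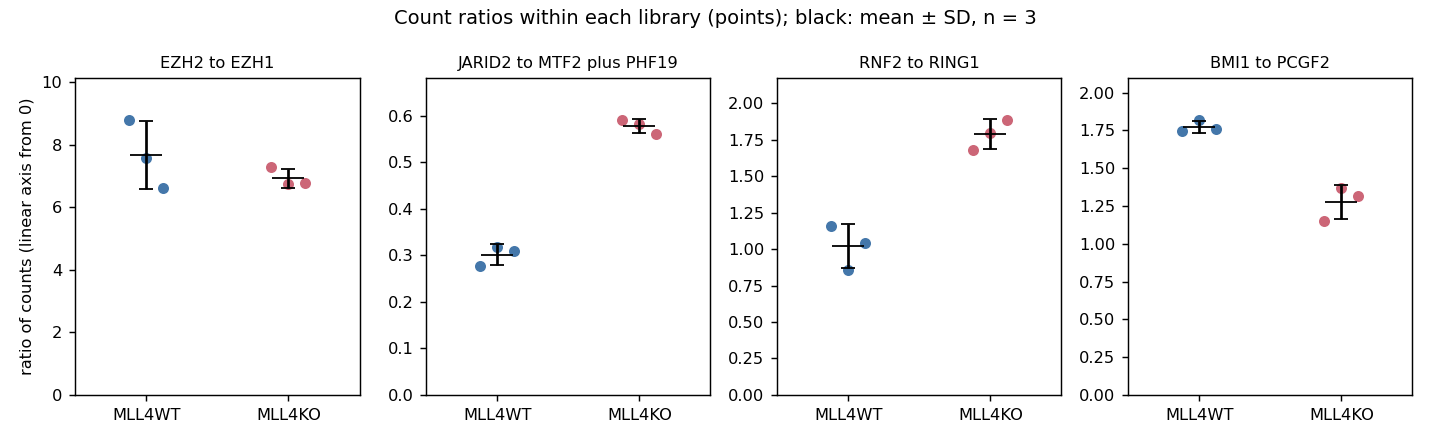
Ratio of counts within each library (vertical axes, linear from 0) for EZH2 to EZH1, JARID2 to MTF2 plus PHF19, RNF2 to RING1 and BMI1 to PCGF2, with MLL4WT in blue, MLL4KO in red and the mean and SD in black. The EZH2 to EZH1 points overlap between the genotypes, and those of the other 3 ratios, which were chosen after the values were seen, do not.

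Levels of different genes were compared per kilobase of annotated exon. In MLL4WT the order was RBBP4 (33.2 ± 1.99 CPM per kilobase), BMI1 (28.7 ± 0.421), EZH2 (22.5 ± 1.48), SUZ12 (21.2 ± 0.632), PHF19 (15.8 ± 1.30), RNF2 (12.4 ± 0.798), MTF2 (8.12 ± 0.316), JARID2 (7.73 ± 0.282), EED (6.35 ± 0.768) and EZH1 (1.94 ± 0.400). EZH2 and SUZ12 overlapped, as did MTF2 and JARID2, and the other neighbours were separate. In MLL4KO, SUZ12 (22.9 ± 0.817), EZH2 (22.01 ± 0.898) and BMI1 (21.4 ± 1.26) could not be ordered beyond their spread, and JARID2 (14.2 ± 0.450) stood above PHF19 (13.0 ± 0.0610) and MTF2 (10.2 ± 0.167). The order depended on the length used. Per kilobase of the longest transcript EED was the sixth in MLL4WT (16.1 ± 1.95), and in MLL4KO JARID2 (14.8 ± 0.470) overlapped MTF2 (14.6 ± 0.239) and lay under PHF19 (20.6 ± 0.0968). RBBP4 was the highest and EZH1 the lowest of the 10 with both lengths in both genotypes.

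Some members share sequence with other genes, which limits how firmly their counts can be assigned. The share of a gene's transcript words of 31 bases that also occur in another gene's transcripts was 29.6% for RBBP4, 22.1% for BMI1 and 13.7% for SUZ12, and between 0.0% and 6.21% for the other 7. For RBBP4 the main partner was SYNC, an overlapping gene, at 0.603 CPM in MLL4WT against 0.981 CPM in MLL4KO, and the 6 listed RBBP4 pseudogenes had at most 0.594 CPM in any library. COMMD3-BMI1, a readthrough transcript that accounts for the words BMI1 shares, was at 8.46 ± 1.32 CPM in MLL4WT against 6.75 ± 1.94 CPM in MLL4KO (log2 -0.31 ± 0.20, edgeR adjusted p = 0.239), and fell without MLL4KO replicate 1 (log2 -0.58, adjusted p = 0.0316). COMMD3, the neighbour it joins to BMI1, was at 21.3 ± 3.98 and 18.3 ± 0.823 CPM (edgeR adjusted p = 0.0720). SUZ12P1, a transcribed copy of SUZ12, was at 8.70 ± 0.965 and 9.02 ± 0.449 CPM (log2 0.08 ± 0.12, edgeR adjusted p = 0.632). EZH2P1 and JARID2-AS1 had at most 1 count in any library and RNF2P1 at most 5. Summed with these partners, BMI1 had a log2 fold change of -0.41 (adjusted p = 4.2e-05), SUZ12 of 0.11 (adjusted p = 0.0726) and RBBP4 with SYNC of 0.34 (adjusted p = 0.000183), and the calls were the same.

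The remaining PRC2 genes on a list of 7 were higher where they passed the test. Of the 7, 4 rose, none fell, 2 did not pass and EZHIP, an inhibitor of PRC2, had no count in any library. For comparison, 19.8% of all tested genes rose and 21.6% fell. LCORL, a relative of the PRC2 partner LCOR, rose 1.26-fold (log2 0.33 ± 0.08, edgeR adjusted p = 0.00438), a rise that missed the threshold after GC and length correction (log2 0.16, adjusted p = 0.0853) and in the thinned libraries (log2 0.34, adjusted p = 0.0600). AEBP2, a partner of JARID2 in PRC2.2, was at 46.8, 53.8 and 59.4 CPM in MLL4WT against 63.0, 70.4 and 65.7 CPM in MLL4KO and rose 1.22-fold (log2 0.29 ± 0.08, edgeR adjusted p = 0.0104), or 0.17 on the log2 scale after GC and length correction. Its call was lost without MLL4KO replicate 2 (log2 0.26, adjusted p = 0.0535), and within the flow cell of MLL4WT replicate 3 and MLL4KO replicate 1 its log2 difference was 0.09. EPOP, a PRC2.1 subunit, rose 1.28-fold (145 ± 24.7 to 183 ± 6.41 CPM; edgeR adjusted p = 0.0233), with MLL4WT replicate 1 close to the MLL4KO libraries at 173 CPM, and the call was lost without MLL4WT replicate 2 or 3 or MLL4KO replicate 2 or 3 (adjusted p between 0.0639 and 0.0830). LCOR, the other that rose, is named after its values were seen (log2 0.20 ± 0.07, edgeR adjusted p = 0.0424). None was called lower with edgeR or DESeq2, and 1, PHF1, was lower at an unadjusted p under 0.05. The count of 4 rises was 2 after GC and length correction, 2 without MLL4WT replicate 2 or MLL4KO replicate 3, and 1 without MLL4KO replicate 2.

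PRC1 genes went both ways, with the largest differences downward. Of 28 other PRC1 genes 11 rose, 4 fell, 12 did not pass the test and AUTS2 was too low to test. Among all tested genes the shares were 19.8% that rose and 21.6% that fell. The median log2 fold change was 0.13 over the 27 tested, against -0.0044 over all tested genes. L3MBTL2, which encodes a histone-binding subunit of a variant PRC1, fell 1.61-fold (75.2 ± 4.34 to 47.1 ± 1.51 CPM; log2 -0.68 ± 0.06, edgeR adjusted p = 3.16e-06). SCMH1, a canonical PRC1 partner gene, fell 1.499-fold (40.4 ± 0.985 to 26.98 ± 0.810 CPM; edgeR adjusted p = 2.12e-05). PCGF1, a PCGF gene of variant PRC1 named after its values were seen, was the other that fell beside RING1 (log2 -0.43 ± 0.09, edgeR adjusted p = 0.00165). The rises were smaller. RYBP, the adaptor that sets variant PRC1 apart from canonical PRC1, rose 1.35-fold (53.2 ± 1.56 to 71.9 ± 5.64 CPM; edgeR adjusted p = 0.000214). DCAF7, of variant PRC1 with PCGF3 or PCGF5, rose 1.26-fold (234 ± 4.54 to 294 ± 0.145 CPM; edgeR adjusted p = 5.4e-05), and BCOR, the corepressor of variant PRC1 with PCGF1, rose 1.29-fold (22.6 ± 0.705 to 29.1 ± 1.39 CPM; edgeR adjusted p = 0.00139). Without MLL4WT replicate 2, or without MLL4KO replicate 1, 7 rose in place of 11.

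**Figure D3:**
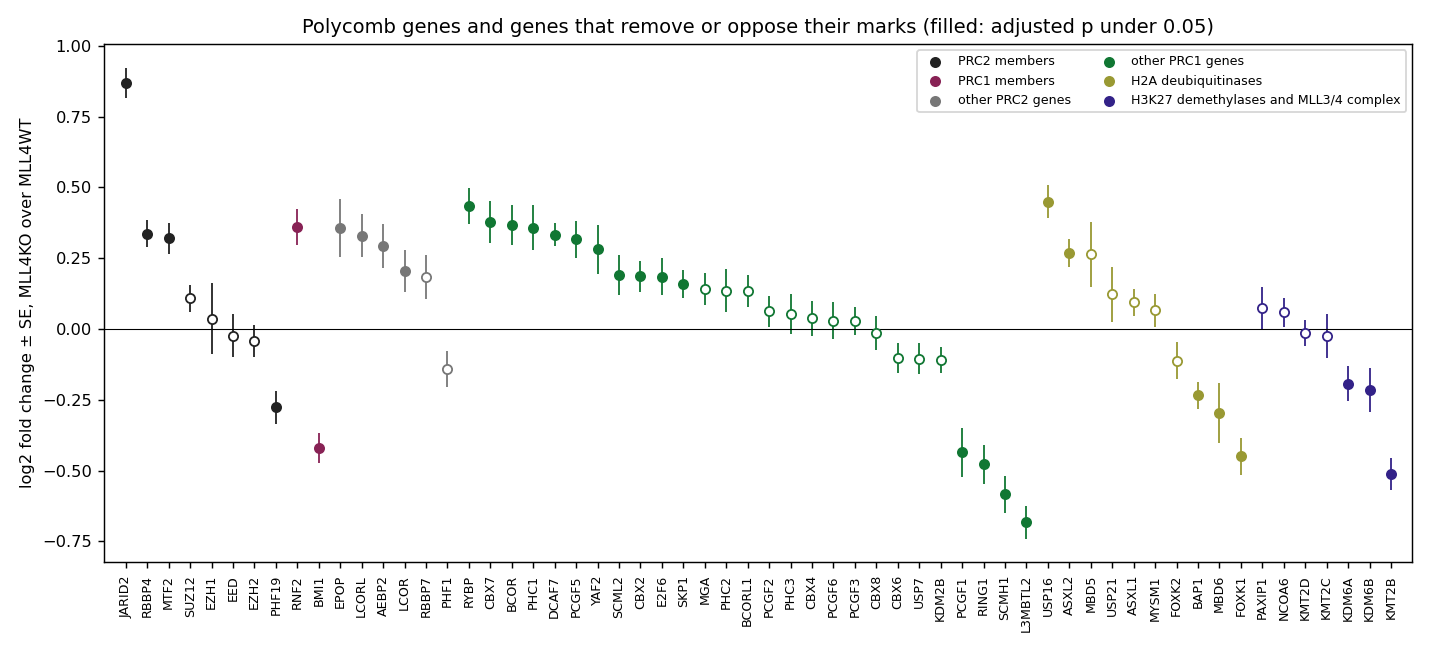
Log2 fold change with its standard error (vertical axis, MLL4KO over MLL4WT), with filled points for an adjusted p under 0.05. Shown is each tested gene of the Polycomb complexes, the H2A deubiquitinases, and the H3K27 demethylases with MLL3/4 complex genes and KMT2B. JARID2 at 0.87 is the highest point and L3MBTL2 at -0.68 the lowest, and KMT2D lies at -0.01.

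Of 11 H2A deubiquitinase genes and partners 2 rose, 3 fell, 5 did not pass the test and ASXL3 was too low to test. These counts are near the shares over all tested genes, where 19.8% rose and 21.6% fell. USP16, an H2A deubiquitinase gene, rose 1.37-fold (68.6 ± 4.72 to 94.5 ± 3.60 CPM; edgeR adjusted p = 7.93e-05), and ASXL2, a cofactor of the deubiquitinase BAP1, rose 1.20-fold (log2 0.27 ± 0.05, edgeR adjusted p = 0.000963), or 0.13 on the log2 scale after GC and length correction. BAP1 itself fell 1.18-fold (112 ± 2.94 to 95.4 ± 2.31 CPM; edgeR adjusted p = 0.002) while FOXK1, which works with it, fell 1.37-fold (42.3 ± 1.97 to 30.7 ± 1.22 CPM; edgeR adjusted p = 0.000202). MBD6, another partner, fell 1.23-fold with overlapping groups (log2 -0.30 ± 0.11, edgeR adjusted p = 0.0448), a call lost in 8 of 18 tested alternatives; the fall was 0.19 on the log2 scale without MLL4WT replicate 1 (adjusted p = 0.0312). Without that library 4 of these genes rose in place of 2.

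A list of 7 measured genes held the H3K27 demethylases, genes of the MLL3/4 complex, and KMT2B, which belongs to neither. By edgeR 3 of the 7 fell, KMT2B among them, and none rose. At an unadjusted p under 0.05 the rises also numbered 0, and DESeq2 gave 0 rises and 1 fall. Over all tested genes 21.6% fell and 41.4% changed in either direction, so the share of this list that was called is near that of any genes. KDM6A (UTX), the H3K27 demethylase of the MLL3/4 complex, was at 34.8, 34.4 and 34.1 CPM in MLL4WT against 30.1, 29.8 and 30.4 CPM in MLL4KO. It fell 1.14-fold with no overlap (log2 -0.19 ± 0.06, edgeR adjusted p = 0.0254), but the call was lost in 10 of 18 tested alternatives, at adjusted p up to 0.267. KDM6B (JMJD3), the inducible H3K27 demethylase, was at 45.9, 40.0 and 39.8 CPM in MLL4WT against 37.2, 32.5 and 37.3 CPM in MLL4KO. Its 1.16-fold fall (log2 -0.22 ± 0.08, edgeR adjusted p = 0.0442) was lost in 13 of the 18. KMT2B, the other gene given the name MLL4, fell 1.42-fold (edgeR adjusted p = 2.33e-05), and KMT2C was at 39.4 ± 2.51 and 39.0 ± 3.31 CPM (edgeR adjusted p = 0.832). Without any 1 of the libraries other than MLL4WT replicate 1 only KMT2B was called, 1 gene in place of 3.

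Transcripts of genes known to be repressed by Polycomb in other settings were examined as a list of 30. The list was chosen with earlier results of these data known, so its comparison with all tested genes is not independent of them. Of the 30, 14 were too low to test, 7 rose, none fell and 9 did not pass the test. Over all tested genes 19.8% rose and 21.6% fell. A positive log2 fold change was seen in 12 of the 16 tested, against 7191 of all 14543 tested genes. The median was 0.30 against -0.0044 over all tested genes. At an unadjusted p under 0.05, 2 of the 16 were lower (SNAI2 and RUNX3), and DESeq2 gave 7 rises and 0 falls. PAX2, a developmental transcription factor gene, was at 13.1, 12.4 and 12.9 CPM in MLL4WT against 26.4, 26.8 and 23.5 CPM in MLL4KO, a 2.01-fold rise (log2 1.01 ± 0.08, edgeR adjusted p = 2.30e-06). LHX2, a LIM homeobox gene, was at 23.6, 20.4 and 20.1 CPM in MLL4WT against 35.9, 35.3 and 35.2 CPM in MLL4KO, a 1.69-fold rise (edgeR adjusted p = 9.33e-06). DAB2IP, a RAS GTPase-activating gene described as an EZH2 target in prostate cancer, rose 1.62-fold (36.2 ± 2.58 to 58.5 ± 3.08 CPM; edgeR adjusted p = 1.05e-05). In all 3 genes every MLL4KO library was above every MLL4WT library.

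The other 4 that rose are named after their values were seen. CDKN1C, an imprinted cell cycle inhibitor gene, was at 14.7, 9.81 and 10.3 CPM in MLL4WT against 25.7, 23.6 and 22.8 CPM in MLL4KO (difference on the log2 scale 1.12 ± 0.12, edgeR adjusted p = 2.46e-05). NKX2-1, a lung and thyroid transcription factor gene, stayed low at 2.38, 1.17 and 0.632 CPM in MLL4WT against 4.08, 4.07 and 3.39 CPM in MLL4KO (edgeR adjusted p = 0.00228). With 11 counts MLL4WT replicate 3 lay under the filter's level, so NKX2-1 entered the test only with the help of MLL4KO libraries. With 1 CPM required in every library NKX2-1 was not tested, and 6 genes of the list rose and 1 fell. PAX6, an eye and brain regulator gene, rose from 2.69 ± 0.433 to 4.98 ± 0.320 CPM (edgeR adjusted p = 0.00223). KLF2, a zinc finger factor gene, rose 1.501-fold (31.6 ± 8.78 to 45.4 ± 0.620 CPM; edgeR adjusted p = 0.0151), with MLL4WT replicate 1 at 41.8 CPM near the MLL4KO libraries. The KLF2 call was lost without MLL4WT replicate 2 or 3 or without MLL4KO replicate 1 or 3, at adjusted p between 0.0526 and 0.0578. CDKN2A, the classical BMI1 target at the INK4 locus, was at 100.2 ± 5.00 CPM in MLL4WT against 100.3 ± 2.08 CPM in MLL4KO (log2 0.0092 ± 0.05, edgeR adjusted p = 0.9015), but at log2 0.21 after GC and length correction (adjusted p = 0.000911). No histone mark was measured in these libraries. The list was assembled from general knowledge of other cells, with earlier results of these data known. Whether Polycomb binds these genes here, or whether its targets as a whole rose, is not shown.

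**Figure D4:**
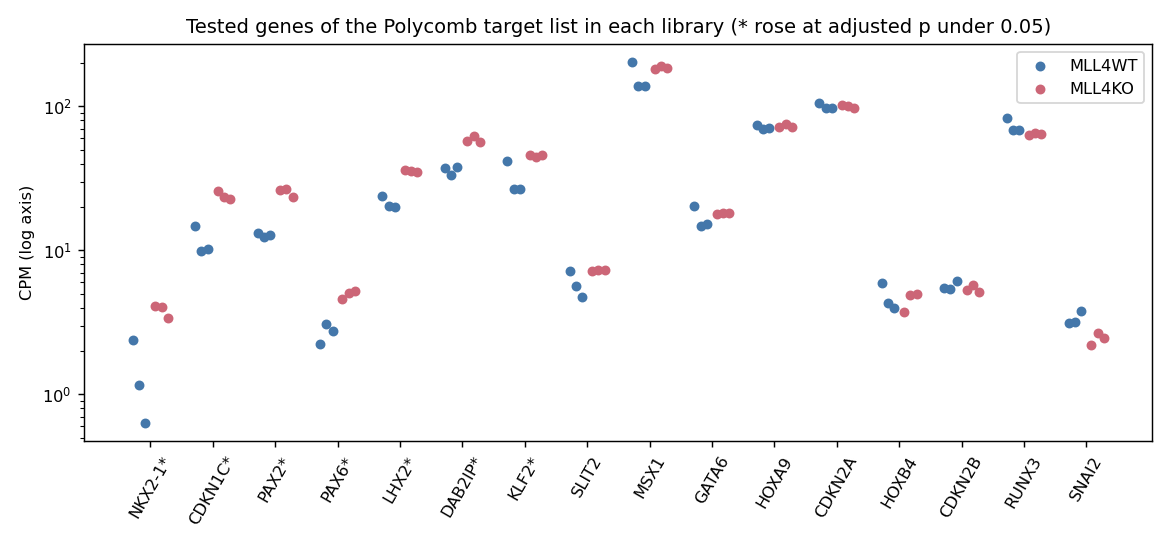
CPM (vertical axis, log scale) of the 16 tested genes of the Polycomb target list in each MLL4WT (blue) and MLL4KO (red) library, ordered by fold change, with an asterisk for an adjusted p under 0.05. The 7 marked genes, from NKX2-1 to KLF2, sit higher in all MLL4KO libraries than in any MLL4WT library, and CDKN2A and HOXA9 are level. Of all tested genes 52.5% had genotypes that did not overlap.

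The calls of the 10 members were set against other processing. JARID2, RBBP4, MTF2, BMI1 and PHF19 kept their direction and their call in all tested alternatives, and RNF2 in all but the thinned libraries. With the values within flow cells included, the log2 fold change ranged from 0.79 to 0.93 for JARID2, 0.20 to 0.40 for RBBP4, 0.21 to 0.38 for MTF2, 0.23 to 0.51 for RNF2, -0.31 to -0.21 for PHF19 and -0.51 to -0.36 for BMI1. EZH2 stayed between -0.10 and 0.06, EED between -0.11 and 0.04, EZH1 between -0.22 and 0.22 and SUZ12 between -0.0062 and 0.17.

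**Figure D5:**
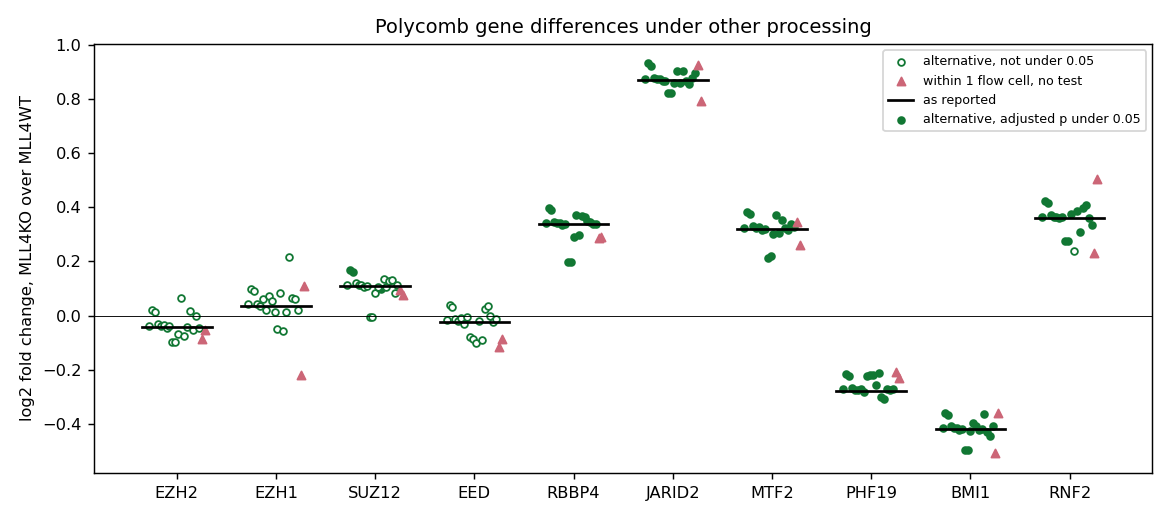
Log2 fold change (vertical axis) of each member as reported (black line), under each tested alternative (green, filled where the adjusted p was under 0.05) and within each flow cell that held both genotypes (red triangles, no test). The points of JARID2 lie between 0.79 and 0.93, and those of EZH2, EZH1 and EED cross 0.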

How the data were processed

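Poly(A)-selected RNA of 3 MLL4WT and 3 MLL4KO libraries was compared, with groups and replicate numbers from the sample titles. The values deposited by the authors are expected counts per gene, whole numbers for 59715 Ensembl IDs, not normalised (per the values and the file headers). The submitters' processing notes name Salmon 1.8.0, DESeq2 1.44.0 and hg38 without saying what each did; the annotation release and the strand setting of the counting are not given in the sources used here. Of the IDs, 27126 had a count and 55764 a symbol; coordinates are from GENCODE 29 on GRCh38, which held 56227. All columns of the table were used.

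Counts were tested with edgeR 4.0.16 in R 4.3.3 (filterByExpr, TMM, robust quasi-likelihood fit, 4 residual degrees of freedom, Benjamini-Hochberg over 14543 genes), and standard errors were computed from the F statistic. The shallowest library had 3 counts at 0.446 CPM, so levels near that were not detectable there. The test was checked on simulated data, where the share of false calls was above the threshold aimed at and most genes made to differ by a fold like that of RBBP4 and MTF2 were missed. Far fewer genes were made to differ there than the 41.4% called in the data. Both shares depend on that setting, so they need not hold for these data. Alternatives were other scalings and filters, DESeq2 1.42.0, limma-voom (limma 3.58.1), a replicate block, correction for GC and length (their trends removed per library, lowess span 0.3), thinning to the shallowest total, a term for the flow cell code that each column's name holds, and leaving out each library. Because MLL4WT replicate 1 was alone on its flow cell code, the flow cell term and leaving out that library are not independent alternatives. Summing RBBP4 with SYNC was chosen after seeing the data.

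Named genes were the 10 members, KMT2B, KMT2C, KMT2D, KDM6A, KDM6B, RBBP7, RING1, the members' copies and overlapping genes, and per list at most 3 called genes of each direction with the smallest adjusted p; others are marked in the text. Members and lists were chosen with earlier results of these data known. PAGR1 had no ID under that symbol and was not analysed here. Promoter sequences are from RefSeq on GRCh38.p14.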

Additional observations from a re-analysis of the deposited data

How the results depend on the processing

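The members' counts stayed at 3 to 5 that rose and 2 that fell over 18 alternatives. With every library thinned to the shallowest total, in 1 random draw, 1781 genes rose and 1987 fell, and RNF2 had both a smaller log2 fold change (0.24 in place of 0.36) and a larger standard error (0.09 in place of 0.06); the part of depth in its lost call was not tested. Leaving out each library gave 1 to 5 rises among the other PRC2 genes, 7 to 14 among the other PRC1 genes and 2 to 4 among the H2A deubiquitinase genes. It gave 1 or 2 falls on the list of H3K27 demethylases, MLL3/4 complex genes and KMT2B. GC and length correction, alone or with the replicate block, gave 2 rises of other PRC2 genes, and with the block 1 rise of H2A deubiquitinase genes, where total counts and upper quartile factors gave 4 each. Total counts, upper quartile factors, DESeq2 and thinning each gave 1 fall in the H3K27 list, and a filter of 1 CPM in every library gave 1 fall among Polycomb-repressed genes. With upper quartile factors 3561 of all tested genes rose and 2475 fell.

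Differences near 0 changed sign, and the cause was not tested. EZH2 was at log2 0.020 with total counts, 0.012 with upper quartile factors and 0.065 thinned, and between -0.074 and 0.017 with each library left out. EZH1 was at -0.048 with a flow cell term and -0.22 within the flow cell of MLL4WT replicate 3 and MLL4KO replicate 1, where the log2 ratio of EZH2 to EZH1 was 0.13, and between -0.058 and 0.22 with each library left out. SUZ12 was at -0.0049 after GC and length correction and -0.0062 with the replicate block as well. EED was at 0.040 with total counts and 0.031 with upper quartile factors, and between -0.091 and 0.034 with each library left out. KMT2D was at 0.048 with total counts, 0.040 with upper quartile factors, 0.018 thinned, 0.0063 after GC and length correction, 0.0068 with the block as well and 0.019 within the flow cell of MLL4WT replicate 2, and between -0.040 and 0.015 with each library left out. KMT2C was at 0.039 with total counts, 0.031 with upper quartile factors and 0.049 thinned, and between -0.084 and 0.038 with each library left out. SUZ12P1 was at -0.084 thinned, and CDKN2A between -0.0065 and 0.052 with each library left out.

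Whether replicate numbers pair the samples is not given in the labels. Same-numbered libraries correlated at 0.0245, 0.0341 and -0.0146 in their deviations from the group means, and not every library correlated best with its own number. The highest values were 0.0499 for MLL4WT replicate 3 with MLL4KO replicate 1 and 0.0453 for MLL4WT replicate 2 with MLL4KO replicate 3. Each of these pairs shares a flow cell code. Values this near 0 cannot decide whether samples were paired. With the replicate block 2689 genes rose and 3024 fell, and 4 members rose and 2 fell.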
